A study of Rattus norvegicus with 6 samples.

Results

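The miR-23, miR-27 and miR-24 miRNAs are made from a pair of paralogous clusters, in which neighbouring hairpins are cut from one primary transcript. Every mature name that starts with miR-23a-, miR-23b-, miR-24-, miR-27a- or miR-27b- was taken, and rows repeated over precursors were merged, which gave 8 of the 311 distinct mature sequences listed. They are rno-miR-23a-3p, rno-miR-24-3p (rno stands for Rattus norvegicus and is left off below), miR-23b-3p, miR-24-2-5p, miR-27a-3p, miR-27a-5p, miR-27b-3p and miR-27b-5p. The study sequenced small RNA from extracellular vesicles, membrane-wrapped bodies secreted by rat BMSCs (bone marrow stromal cells, adherent cells that can become bone), in 6 libraries. The cells came from leg bones of male SD rats aged 4 weeks and were cultured at 37 degrees with antibiotics and 10% fetal bovine serum. Both groups had 5% carbon dioxide, and they differed in oxygen, 1% for the 3 hypoxia libraries and 21% for the 3 normoxia libraries. Whether the replicates are different animals or cultures is not in the labels, nor is the duration of low oxygen. The p-values therefore reflect the spread of these 6 libraries alone, and that spread may be technical.

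In RefSeq genes of build GRCr8 the miR-23a/27a/24-2 cluster overlaps no other gene. The miR-23b/27b/24-1 cluster lies inside the protein-coding gene Aopep, and Fancc and Mir3074 also overlap it in part. In each cluster 1 transcript carries 1 hairpin of each kind, so equal processing and stability would give the products at equal levels. Known targets of miR-27, worked out in mouse and human cells, include Pparg, a regulator of fat cell formation. In mouse osteoblasts the miR-23a cluster is known to act on Runx2, a transcription factor of bone formation. miR-23, miR-24 and miR-27 were among the first miRNAs described as raised by low oxygen, in human cancer cells.

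The sequences matter here because the paralogs are nearly identical and because one product comes from both clusters. They are printed as deposited, 5′ to 3′, with the seed (bases 2 to 8, the part that pairs with targets) in capitals. All 8 were identical to the RefSeq entry of the same name (build GRCr8).
miR-23a-3p: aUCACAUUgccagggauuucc
miR-23b-3p: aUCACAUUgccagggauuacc
miR-27a-3p: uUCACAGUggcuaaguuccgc
miR-27b-3p: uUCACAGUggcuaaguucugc
miR-24-3p: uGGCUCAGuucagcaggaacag
miR-24-2-5p: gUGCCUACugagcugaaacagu
miR-27a-5p: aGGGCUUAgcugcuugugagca
miR-27b-5p: aGAGCUUAgcugauuggugaacag
The 3p arms fall into 3 seed groups, and the seeds of miR-23 and miR-27 both begin with UCACA. miR-23a-3p and miR-23b-3p differ by 1 base, U19A, and miR-27a-3p and miR-27b-3p by 1 base, C19U, counted from 1 at the 5′ end. A read that ends before base 19 fits both paralogs, and how the authors assigned such reads is not given in the sources used here, so the split within each pair is uncertain.

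The hairpins of miR-24 are shown because their 3p arms are the same and their 5p arms are not. Mature arms are in capitals, sequences and positions are from RefSeq (build GRCr8), and positions in rn6, the build named in the submitters' processing notes, are not given. Mir24-2 lies at chr19:40859455-40859562 on the minus strand, and Mir24-1 at chr17:1818669-1818736 on the minus strand.
Mir24-2: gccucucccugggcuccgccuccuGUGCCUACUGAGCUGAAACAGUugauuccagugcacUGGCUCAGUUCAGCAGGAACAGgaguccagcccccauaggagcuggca
Mir24-1: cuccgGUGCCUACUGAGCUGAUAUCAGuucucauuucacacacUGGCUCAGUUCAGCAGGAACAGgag
miR-24-3p therefore cannot be assigned to a cluster. The 5p arms differ at 5 positions, the first of them base 17. The table lists miR-24-2-5p and has no entry for miR-24-1-5p. The 3 hairpins of the miR-23a cluster span 389 bases (chr19:40859455-40859843) and those of the miR-23b cluster 814 bases (chr17:1818669-1819482), both on the minus strand of GRCr8. Of the 8 listed products, 4 come from the miR-23a cluster alone, 3 from the miR-23b cluster alone and 1 from both.

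Library totals ran from 106954 to 248542 counts. Together the 8 sequences took 1.42, 1.43 and 2.14% of the counts of hypoxia replicates 1 to 3 and 1.70, 2.38 and 1.20% of those of normoxia replicates 1 to 3. Exact binomial 95% intervals were narrow. They hold counting error alone, because amplified reads that carry no molecular identifier can be copies of one molecule. In hypoxia replicate 1 the interval was 1.35 to 1.49%. The groups overlapped, and the two-sided exact permutation p was 0.7. Hypoxia replicate 1 stood apart from the rest, with 85 sequences listed against 129 to 183 elsewhere. Its mean correlation with the other libraries over the 56 sequences counted in all of them was 0.888, against 0.931 to 0.952, and it listed 4 of the 8 members against 6 to 8. Results that rest on it are given without it too. All 8 fixed markers of mesenchymal stromal cells were listed, and they summed to 30.4 to 40.0% of counts at 1% oxygen and 28.5 to 43.4% at 21% oxygen. The sum was not split by marker, and a few abundant sequences could hold most of it. Stromal origin was therefore not tested by its size. Of markers of other sources, 3 of 7 blood cell ones summed to 0.0 to 0.0567% of counts at 1% oxygen and 0.0253 to 0.103% at 21% oxygen, with miR-223-3p and both arms of miR-142 not listed. The endothelial ones, 1 of 2, summed to 0.0267 to 0.0793% and 0.0423 to 0.0963%, and the epithelial ones, 3 of 7, to at most 0.0103% and 0.0128%. The liver or serum marker miR-122-5p took 0.499 to 0.787% and 0.464 to 0.905%. The striated muscle ones, 3 of 5, took 0.147 to 1.89% and 0.324 to 0.487%, the highest in hypoxia replicate 1. The part of such sources in the values below was not tested.

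miR-24-3p and miR-27b-3p carried most counts of the clusters in every library. miR-24-3p, a miRNA known to restrain cell-cycle genes in human cells, had 737, 659 and 2279 counts at 1% oxygen and 1064, 2441 and 1310 at 21% oxygen. Its levels in CPM (counts scaled to a common library size, here divided by TMM factors that correct for differences in composition) were 5016, 4901 and 9242 at 1% oxygen and 10366, 12021 and 6408 at 21% oxygen. With TMM factors hypoxia replicates 1 and 2 were the lowest libraries, and hypoxia replicate 3 lay above normoxia replicate 3. By library totals alone normoxia replicate 3, at 5767 CPM, lay below hypoxia replicate 1, at 6210 CPM. The groups overlapped on both scales. miR-27b-3p had 802, 1153 and 2689 counts at 1% oxygen and 588, 2038 and 1146 at 21% oxygen, or 5458, 8574 and 10904 CPM against 5729, 10036 and 5606 CPM. On this TMM scale its lowest and highest levels were both in hypoxia libraries, hypoxia replicate 1 lying just below normoxia replicate 3. Divided by library totals alone the lowest was normoxia replicate 3, at 5045 CPM against 6757 CPM in hypoxia replicate 1. Their ranks among all sequences of a library ran from 14 to 22 for each of them.

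The remaining members were far scarcer. miR-27a-3p, which shares its seed with miR-27b-3p, stood at 177, 677 and 320 CPM at 1% oxygen and 419, 704 and 494 CPM at 21% oxygen, from as few as 26 counts in hypoxia replicate 1. miR-23a-3p was at 0, 721 and 466 CPM at 1% oxygen and 624, 714 and 191 CPM at 21% oxygen, with 97 and 115 counts in hypoxia replicates 2 and 3 and 64 and 39 in normoxia replicates 1 and 3. The lowest library was hypoxia replicate 1, which listed no miR-23 sequence at all although its total of 118683 counts was above the 106954 of normoxia replicate 1. miR-23b-3p had 0, 7 and 40 counts at 1% oxygen and 9, 35 and 61 at 21% oxygen, the highest value in normoxia replicate 3, where miR-23a-3p had its lowest listed count. The table may list only counts above a minimum, since no count of 1 occurs, so a blank is given as 0 listed counts and no upper limit is attached to it.

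**Figure D1:**
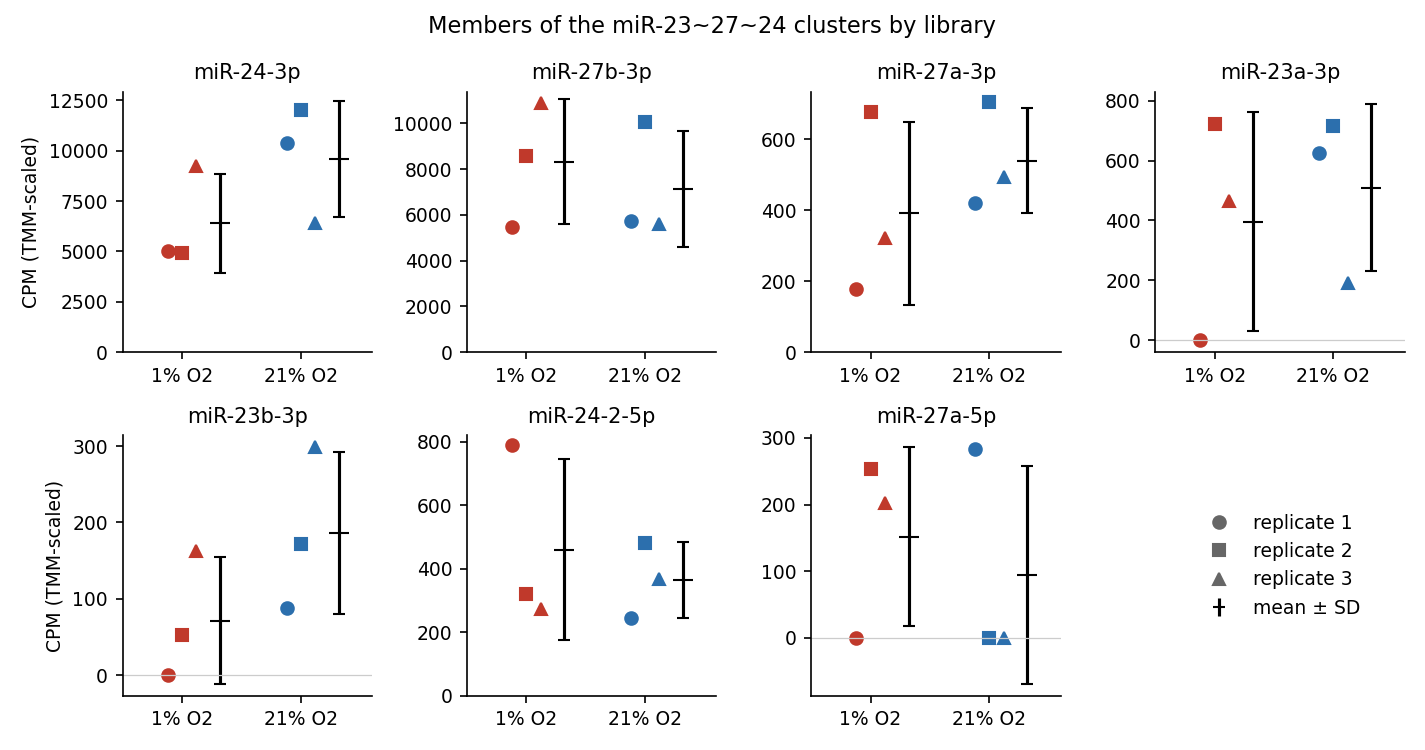
Level of each of the 7 tested members in every library, in CPM divided by TMM factors (y axis), at 1% and 21% oxygen (x axis). Symbols mark the replicate number, and bars show the mean and SD of 3 libraries. The groups overlap in every panel, and the group means of miR-24-3p and miR-27b-3p are 6386 to 9598 CPM against at most 539 CPM for the others.

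The order of the 3p arms by mean level over the 6 libraries was miR-24-3p, miR-27b-3p, miR-27a-3p, miR-23a-3p and miR-23b-3p, in CPM of library totals. The place of miR-27a-3p above miR-23a-3p rests on hypoxia replicate 1. Their means were 450 and 434 CPM over 6 libraries and 497 and 521 CPM without it, and their medians over 6 libraries were 423 and 531 CPM. Neighbours were compared by the log2 ratio of their counts within a library, with 1 count added to each, in two-sided exact sign-flip permutation tests over 6 libraries, where no p can go below 0.03125. The pairs follow from the order in the same libraries, so which of them is higher is a description. Ligation and amplification differ between sequences, so a ratio of counts is not a ratio of molecules. miR-24-3p and miR-27b-3p did not differ beyond their spread, with a mean log2 ratio of 0.02 ± 0.56 (SD, n = 6), miR-24-3p higher in 3 of 6 libraries and an exact permutation p of 0.875. That mean pools oxygen groups on opposite sides of 0, which are given separately below. miR-27b-3p was higher than miR-27a-3p in 6 of 6 libraries, with a mean log2 ratio of 4.11 ± 0.69 (SD, n = 6), an exact permutation p of 0.03125 and an adjusted p of 0.125 over the 4 pairs. Its count was 11.3 to 34.04 times that of miR-27a-3p. Neither miR-27a-3p over miR-23a-3p, at 0.82 ± 2.05, nor miR-23a-3p over miR-23b-3p, at 1.53 ± 1.61 (SD, n = 6 each), was separated from 0, with exact permutation p of 0.5 and 0.125. miR-27a-3p was above miR-23a-3p in 2 of 6 libraries, and without hypoxia replicate 1, which lists no miR-23a-3p, the mean was 0.03.

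Products of one primary transcript were then set side by side, which needs no scaling between libraries. In the miR-23a cluster, miR-27a-3p made up 48.4 and 40.7% of the summed counts of miR-23a-3p and miR-27a-3p in hypoxia replicates 2 and 3, and 40.2, 49.7 and 72.1% in normoxia replicates 1 to 3. In hypoxia replicate 1 all 26 counts were miR-27a-3p. In the miR-23b cluster, miR-27b-3p made up 100, 99.4 and 98.5% of its pair with miR-23b-3p at 1% oxygen and 98.5, 98.3 and 94.9% at 21% oxygen. The first pair was near balance in 4 of the 5 libraries that list miR-23, and the second leaned to miR-27b-3p in all 6. Where miR-23b-3p was listed, miR-27b-3p had 18.8 to 164.7 times its count, while miR-27a-3p had 0.672 to 2.59 times that of miR-23a-3p.

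The miR-27 share was higher in the miR-23b cluster than in the miR-23a cluster in the 5 libraries with miR-23 counts, by 47.7 ± 14.5 percentage points (SD, n = 5). Over 6 libraries, with hypoxia replicate 1 at 0 since it lists no miR-23, the difference was 39.8 ± 23.4 points (SD, n = 6). The exact sign-flip permutation p was 0.0625 in both cases, in a test added after the data were seen. That is the smallest p that 5 libraries allow. A library at 0 adds nothing to the test, so the cases are not separate results. With 1 count added to each member the difference was 40.3 points with an exact permutation p of 0.03125. There the added count alone puts hypoxia replicate 1 above 0, so this is no firmer result. These shares rest on the split of reads between sequences that differ at base 19, and whether that split was even was not tested. Seed group totals do not depend on it. miR-23 of either cluster took 0.0, 5.18 and 2.98% of the 3p counts at 1% oxygen and 4.13, 3.75 and 3.76% at 21% oxygen.

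The 5p arms were scarce for both miR-27 paralogs, and more so for miR-27b. miR-27a-5p had 0, 34 and 50 counts at 1% oxygen and 29, 0 and 0 at 21% oxygen. In the 3 libraries that list it, its count was 0.374 to 0.674 times that of miR-27a-3p. miR-27b-5p was listed in 1 library, hypoxia replicate 2, with 2 counts beside 1153 of miR-27b-3p. The difference between the paralogs in this respect was not tested.

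miR-24-2-5p, the arm opposite miR-24-3p on the Mir24-2 hairpin and the only listed sequence that reports this hairpin alone, was counted in all 6 libraries. It had 116, 43 and 67 counts at 1% oxygen and 25, 98 and 75 at 21% oxygen. Its highest level was in hypoxia replicate 1, at 789 CPM against 244 to 483 CPM elsewhere. In that library miR-24-2-5p had more counts than miR-27a-3p of the same transcript, and in the other 5 libraries miR-27a-3p was ahead by 1.18 to 2.12 times. miR-24-3p had 6.35 to 42.6 times its count. The 5p arms together made up 6.90, 3.79 and 2.20% of the members' counts at 1% oxygen and 2.96, 2.00 and 2.75% at 21% oxygen, with overlapping groups and an exact permutation p of 0.3 (3 libraries a group). The difference of means was 1.73 points, 0.424 without hypoxia replicate 1 and 2.77 without hypoxia replicate 3.

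The comparison of oxygen levels asked whether any of these miRNAs differs in vesicles of cells held at 1% and 21% oxygen. Of the 8 members, 7 passed the filter on low counts and were tested together with all other sequences that passed, and miR-27b-5p did not pass. In edgeR's quasi-likelihood test with Benjamini-Hochberg adjustment over every tested sequence, 0 of 7 members were called higher and 0 lower, against 0.0% of all tested sequences in either direction. At an unadjusted p under 0.05 edgeR gave 0 members and 1 sequence in all (0.935%). DESeq2 called 0 sequences and gave 1 at an unadjusted p under 0.05, and limma on the authors' normalized table called 0 and gave 3 or 4, depending on the pseudocount. Fitted log2 fold changes, 1% over 21% oxygen, were below 0 for 4 members and above 0 for 3, against 63 and 44 of all tested sequences, whose median was -0.14. The groups of 0 of 7 members were free of overlap, against 7.48% of tested sequences lower and 0.0% higher without overlap.

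Among the abundant members, miR-24-3p had 6386 ± 2474 CPM at 1% oxygen and 9598 ± 2884 CPM at 21% oxygen (SD, n = 3 each). The fitted difference was -0.59 on the log2 scale (95% interval -1.46 to 0.28), and edgeR gave it an adjusted p of 0.998. miR-27b-3p had 8312 ± 2732 CPM and 7124 ± 2523 CPM (SD, n = 3 each), and a log2 fold change of 0.22 (-0.65 to 1.09), with the same adjusted p in edgeR. Without hypoxia replicate 1 the values were -0.24 for miR-24-3p and 0.67 for miR-27b-3p, both still not called. Each interval reaches past a 2-fold difference in one direction, so likeness of the groups is not shown either. Counts are relative within a library, and fewer vesicles from a cell type and less of a miRNA per vesicle cannot be told apart.

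The scarce members had much wider intervals. For miR-23a-3p the log2 fold change was -0.36 with an interval of -3.98 to 3.25, and for miR-27a-3p -0.46 with -3.36 to 2.43. Without hypoxia replicate 1 both were above 0, at 0.47 and 0.14. miR-23b-3p had -1.36 (-5.60 to 2.87) and -0.61 without that library. It was -2.63 without hypoxia replicate 3 and -2.37 with the replicate block, uncalled in each. miR-24-2-5p had 0.33 (-2.64 to 3.31) and -0.07 without it. miR-27a-5p had 0.71 (-4.43 to 5.85) and 1.52 without it. All its normoxia counts were in normoxia replicate 1, so no fold is given without that library. Each adjusted p was 0.998 in edgeR with all libraries. When paralogs were summed before the fit, which removes the doubt over base 19, the miR-23 pair had -0.44 (-3.75 to 2.88) and the miR-27 pair 0.31 (-0.55 to 1.18).

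**Figure D2:**
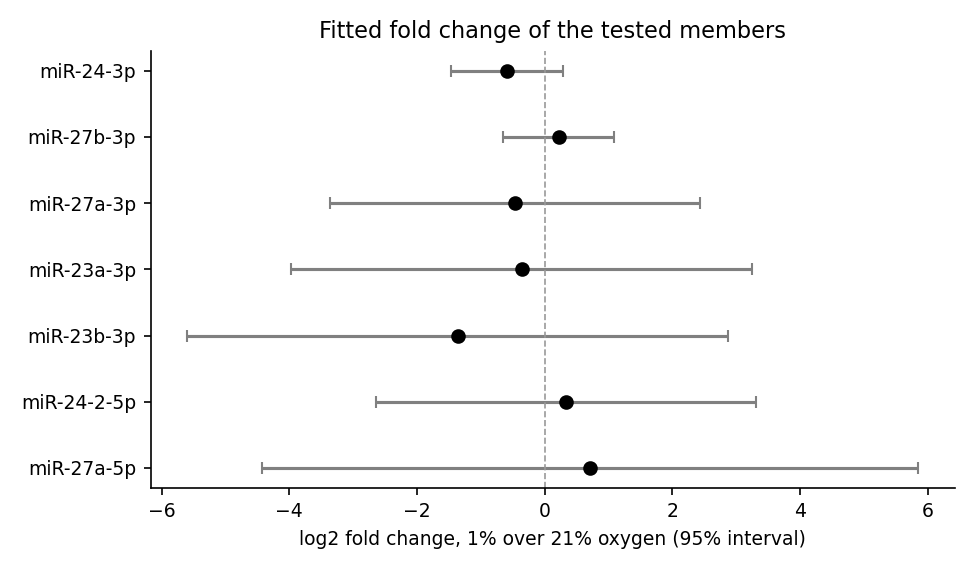
Fitted log2 fold change, 1% over 21% oxygen (x axis), of the 7 tested members (y axis), from edgeR's model over all tested sequences, with 3 libraries a group. Points are estimates, bars are 95% intervals and the dashed line marks 0. Every interval includes 0, and those of miR-24-3p (-1.46 to 0.28) and miR-27b-3p (-0.65 to 1.09) are the narrowest.

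The balance between the abundant members separated the oxygen groups in every library. miR-24-3p made up 47.1, 32.8 and 43.8% of the members' 3p counts at 1% oxygen and 60.2, 50.8 and 49.3% at 21% oxygen. All 3 hypoxia shares lay below all 3 normoxia shares, although the exact binomial 95% intervals of the nearest libraries, 44.6 to 49.6% in hypoxia replicate 1 and 47.4 to 51.2% in normoxia replicate 3, overlapped. The means were 41.2 ± 7.47% and 53.4 ± 5.89% (SD, n = 3 each), a difference of -12.2 percentage points, which was -7.99 without hypoxia replicate 2. The sum of miR-27a-3p and miR-27b-3p made up 52.9, 62.0 and 53.2% at 1% oxygen and 35.7, 45.4 and 46.9% at 21% oxygen, 13.4 points higher on average. Both gave an exact permutation p of 0.1, the smallest that 3 against 3 libraries allow, and an adjusted p of 0.3 over the 9 shares compared, so neither passed. They are not separate results. miR-23 took at most 5.18% of the 3p counts of any library, so a lower miR-24-3p share nearly forces a higher miR-27 share.

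**Figure D3:**
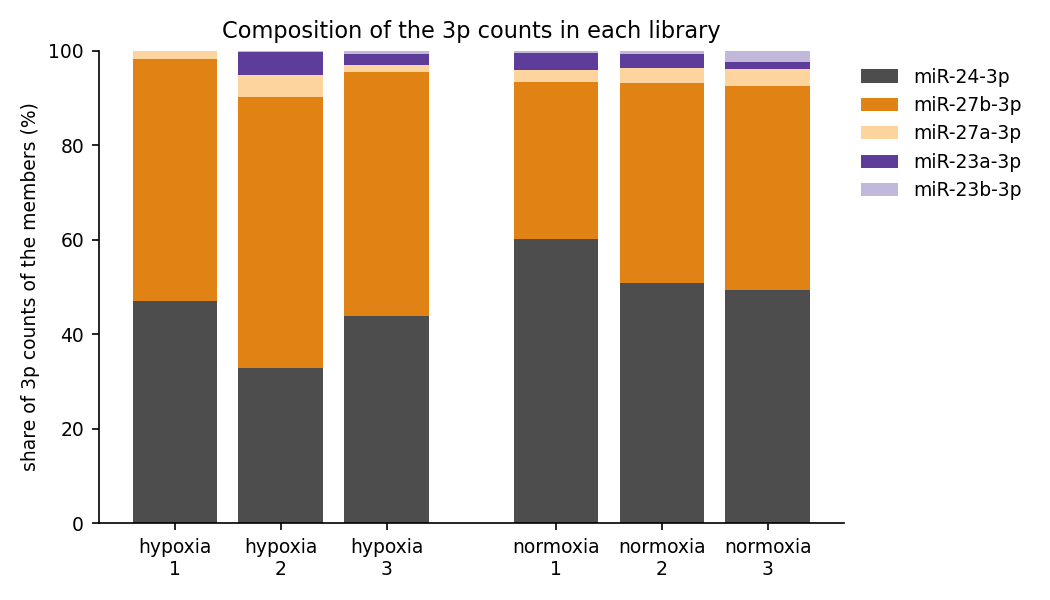
Share of each 3p arm (y axis, percent of the members' 3p counts) in each of the 6 libraries (x axis). miR-24-3p takes 32.8 to 47.1% at 1% oxygen and 49.3 to 60.2% at 21% oxygen, miR-27b-3p takes most of the rest, and no miR-23 is listed in hypoxia replicate 1.

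Expressed as a ratio, miR-24-3p had 0.919, 0.572 and 0.848 times the count of miR-27b-3p at 1% oxygen and 1.81, 1.20 and 1.14 times at 21% oxygen. Every hypoxia library had more miR-27b-3p than miR-24-3p, and every normoxia library had less. The mean log2 ratio was -0.39 ± 0.37 at 1% oxygen and 0.44 ± 0.36 at 21% oxygen (SD, n = 3 each), a difference of -0.83 with an exact permutation p of 0.1. This ratio was added after the data were seen and restates the shares. Leaving out any 1 library kept the difference between -0.96 and -0.62, and without hypoxia replicate 2, the lowest, it was -0.62. Of the 1540 pairs that the 56 sequences counted in all libraries can form, 3.51% had ratios that separated the groups in this way. Among the 6 pairs of members counted in all libraries this was 1 pair, miR-24-3p with miR-27b-3p. miR-24-3p was lower at 1% oxygen without overlap relative to 4 of its 55 partners, and miR-27b-3p was higher relative to 4 of 55.

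**Figure D4:**
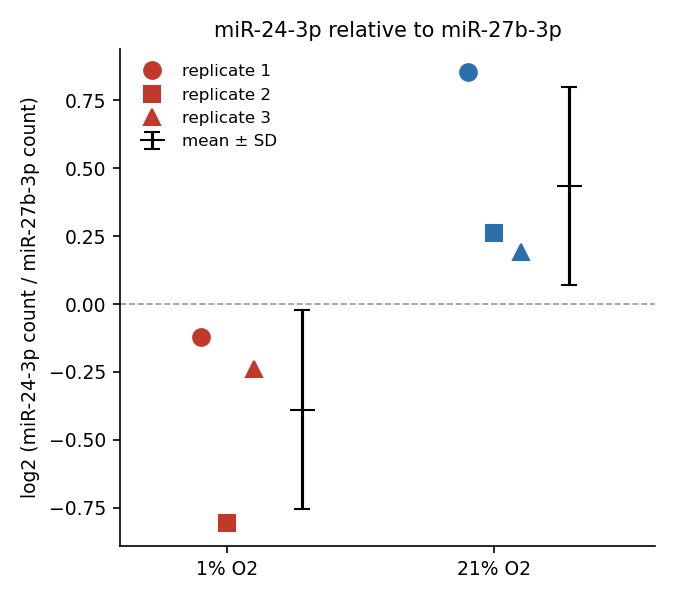
Log2 ratio of the miR-24-3p count to the miR-27b-3p count (y axis) in each library at 1% and 21% oxygen (x axis). Symbols mark the replicate number, bars the mean and SD of 3 libraries and the dashed line equal counts. The hypoxia libraries lie below 0 and the normoxia libraries above it.

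The other shares did not pass either. The share of miR-27b-3p in its pair with miR-23b-3p was 99.3 ± 0.737% at 1% oxygen and 97.3 ± 2.00% at 21% oxygen (SD, n = 3 each), without overlap, with an exact permutation p of 0.1 and an adjusted p of 0.3. The difference of 2.06 points was 0.91 without normoxia replicate 3. The nearest libraries, hypoxia replicate 3 and normoxia replicate 1, had 40 and 9 counts of miR-23b-3p, and their intervals, 98.0 to 98.95% and 97.2 to 99.3%, overlapped. The share of miR-27a-3p in the miR-27 pair was 4.44 ± 2.50% at 1% oxygen and 7.16 ± 0.826% at 21% oxygen (SD, n = 3 each), with an exact permutation p of 0.3. The difference was -4.16 points without hypoxia replicate 2. The share of miR-23a-3p in the miR-23 pair was 93.3 and 74.2% in hypoxia replicates 2 and 3 and 87.7, 80.6 and 39.0% in normoxia replicates 1 to 3, with an exact permutation p of 0.8. The share of miR-23 among the 3p counts was 2.72 ± 2.60% and 3.88 ± 0.215% (SD, n = 3 each), with an exact permutation p of 0.7. Without hypoxia replicate 1 the hypoxia mean was 0.20 points above that of normoxia.

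Likeness of pattern was measured by the SD over the 6 libraries of the log2 ratio of counts, where a small SD means that 2 sequences kept their proportion. It was computed for the 4 members counted in every library against the 55 other such sequences, and it is a description, since scarce sequences have a larger SD from counting alone. With all 6 libraries no fellow member was among the 3 nearest of any of the 4, but this depended on hypoxia replicate 1 for miR-27a-3p. For miR-24-3p the nearest were miR-218a-5p (0.312), miR-99b-5p (0.356) and miR-126a-3p (0.377), and miR-27b-3p ranked 12 of 55 with 0.558. For miR-27b-3p they were miR-152-3p (0.252), let-7g-5p (0.257) and miR-199a-3p (0.339), and miR-24-3p ranked 14. miR-27a-3p was nearest to miR-26a-5p (0.331), let-7i-5p (0.362) and miR-224-5p (0.423), with miR-27b-3p at rank 15 and miR-24-3p at rank 21. miR-24-2-5p was nearest to miR-450a-5p (0.393), miR-22-3p (0.568) and miR-221-3p (0.608). Its own cluster mate miR-27a-3p ranked 49 of 55 with 1.17, and miR-24-3p, from the same hairpin, ranked 35 with 0.979. Without hypoxia replicate 1, over 5 libraries, miR-24-2-5p was the nearest of all 55 to miR-27a-3p, with 0.327. Seen from miR-24-2-5p, miR-27a-3p then ranked 8 and miR-24-3p ranked 23, with 0.623. The nearest to miR-24-2-5p changed to let-7f-5p (0.163), let-7i-5p (0.192) and miR-450a-5p (0.253). For miR-27b-3p let-7d-5p (0.257) came first, ahead of let-7g-5p and miR-152-3p. The nearest to miR-24-3p were again miR-218a-5p, miR-99b-5p and miR-126a-3p, and miR-27b-3p ranked 20 with 0.619. This repeat was chosen after the data were seen.

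**Figure D5:**
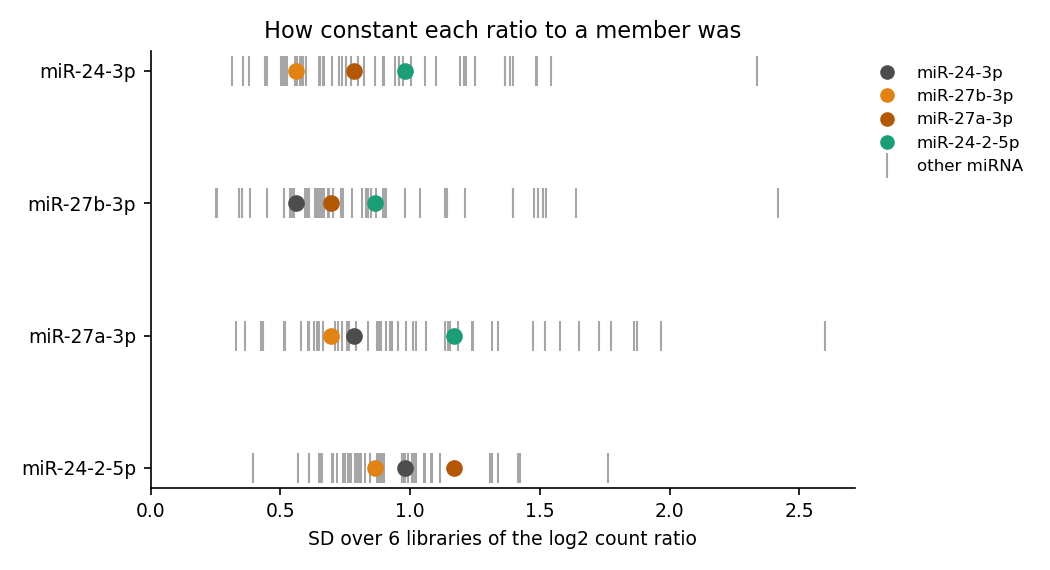
SD over 6 libraries of the log2 count ratio (x axis) between each of 4 members (y axis) and the 55 other sequences counted in all libraries. Circles are fellow members and grey ticks other miRNAs. Fellow members lie from 0.558 to 1.17. Without hypoxia replicate 1, which is not drawn separately, they lie from 0.327 to 0.794.

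Other miRNAs of the same context gave no call either. Of 14 miRNAs described as raised by low oxygen, 11 were tested in edgeR, 3 above 0 and 8 below, with 0 passing and a median log2 fold change of -0.36 against -0.14 for all tested sequences. They include 5 members described above, and that median is the value of miR-23a-3p, which was 0.47 without hypoxia replicate 1. Of the others, the fitted log2 values were -0.39 (SE 0.35) for miR-26a-5p, -0.09 (SE 0.58) for miR-103-3p and 0.19 (SE 1.72) for miR-26b-5p. Of 11 miRNAs described as targeting Runx2, 4 were tested, 1 above 0 and 3 below, with 0 passing and a median of -0.40. Beside miR-23a-3p these were miR-218a-5p at -0.44 (SE 0.68), miR-30c-5p at 0.19 (SE 1.00) and miR-34c-5p at -0.57 (SE 1.69).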

How the data were processed

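Per the file headers, the authors deposited raw tag counts for each mature miRNA and precursor. They also deposited a normalized table, used here as a score: its whole numbers lie near the count multiplied by a constant for each library, and how that constant was set is not stated. Build rn6, Novoalign 3.02.12 and cutadapt 1.9.3 are named by the submitters' processing notes without a role. No source used here gives the counting program, strand setting or annotation release. Blank cells became 0, and 2 was the smallest listed count. Merging reduced 353 rows to 311 distinct mature sequences. Library totals (106954 to 248542) set the precision.

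edgeR 4.0.16 (R 4.3.3) was fitted to all sequences with filterByExpr (minimum count 10, minimum total 15), TMM factors and the robust quasi-likelihood test. Calls needed an adjusted p (Benjamini-Hochberg) under 0.05. The fit was run on simulated counts, with a required rate of true calls only where the spread was far smaller than in these libraries. Here the coefficient of variation common to all sequences was 1.07, and the power of the fit at that spread is not given. Shares and ratios were tested by exact permutation, two-sided, with the same adjustment over 9 shares. Their intervals are exact (Clopper-Pearson, 95%).

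Alternatives were other scalings (RLE, upper-quartile, totals alone), other filters (none, or a mean of 50 counts), DESeq2 1.42.0, limma 3.58.1 on the normalized table (pseudocount 1 or 10), summed paralogs, a replicate block, and omission of each library. Replicate numbers were not taken as pairs in the main tests, since the labels state no pairing.

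Members, the 2 lists, markers and naming rule were chosen with earlier results of these data known. The rule names every member, the 3 nearest sequences by SD of the log2 ratio, and the 3 most abundant tested non-members of each list. miR-210-3p was named outside this rule.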

Additional observations from a re-analysis of the deposited data

How the results depend on the processing

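The count of 0 called sequences held in both directions under all 16 alternatives, and no member tested in them was called. miR-23b-3p and miR-27a-5p were not tested with a mean count of at least 50, and miR-27b-5p was tested with no filter alone. miR-24-3p stayed below 0 (-0.80 to -0.24) and miR-27b-3p above 0 (0.14 to 0.67) in all 16, and the miR-24-3p and miR-27 shares kept their direction in all 9 of theirs. Those shares are nearly mirror images of each other. Signs that depended on 1 library are given as ranges over the fits without 1 library each: miR-23a-3p -0.97 to 0.47, miR-27a-3p -0.98 to 0.14 and miR-24-2-5p -0.070 to 0.74 (log2), the members' share of all counts -0.38 to 0.21 points, the miR-23 share -2.39 to 0.20, miR-23a-3p in its pair -0.38 to 24.2, miR-27a-3p in its pair with miR-23a-3p -9.43 to 20.2, and the mean log2 ratio of miR-24-3p over miR-27b-3p, groups pooled, -0.14 to 0.19. miR-27a-3p had 0.31 with paralogs summed, where miR-27b-3p holds most counts of the sum. Processing also moved miR-23a-3p, from -0.36 in the main fit to -1.92 in limma with pseudocount 1 and -0.89 with pseudocount 10. The difference between the paralogous transcripts was 40.3 points with 1 count added, with an exact permutation p of 0.03125, where the added count gives hypoxia replicate 1 a difference above 0. The median of all tested sequences was -0.14, 0.15 without hypoxia replicate 1 and 0.10 with a mean count of at least 50.

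With the replicate block, 0 sequences were called and miR-24-3p had -0.62. No call changed. The deviations of same-numbered libraries correlated at 0.228, 0.0313 and 0.124, and 4 of 6 libraries correlated best with their own number. These values do not settle whether the numbers are pairs. The labels state no pairing, so the numbers were not taken as pairs. For the scarce members the 95% intervals span more than 5 log2 units, so neither a difference nor likeness is shown.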
